A study of Mus musculus with 28 samples.

Results

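Expression of 7 genes of protein ADP-ribosylation was followed in macrophages exposed to von Willebrand factor (VWF) or to bacterial lipopolysaccharide (LPS). The interferon-linked members were Parp9, Parp10, Parp11, Parp12, Parp14 and Dtx3l, and Parp1, taken as constitutively expressed, served as the reference. The genes were chosen by name, with earlier results of these data known. Each was matched by symbol in a GRCm38 annotation (GENCODE M21) to 1 of the 54532 genes counted. RNA was sequenced from 28 cultures of murine bone marrow-derived macrophages, which were grown from the marrow of adult C57/B6JB mice in M-CSF. Control cultures received PBS, VWF cultures received 10 µg/ml of human plasma-derived VWF (pd-VWF), a multimeric plasma glycoprotein that tethers platelets, and LPS cultures received 100 ng/ml of LPS, all in medium with 1 mM CaCl2. There were 5 control, 5 VWF and 4 LPS cultures harvested at 3.5 h and as many at 16 h, labelled as biological replicates; whether they came from separate animals is not given, so p-values measure the spread between these cultures.

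PARP enzymes take ADP-ribose from NAD+ and attach it to proteins and nucleic acids. Parp1 builds chains of ADP-ribose at DNA breaks, whereas Parp10, Parp11, Parp12 and Parp14 attach single units, and Parp9 binds ADP-ribose through its macrodomains and acts in a complex with Dtx3l, a ubiquitin ligase of the Deltex family. Macrophages that sense LPS through Toll-like receptor 4 secrete type I interferon, and its receptor activates ISGF3, a complex with Stat2 and Irf9 that binds interferon-stimulated response elements (ISRE) in promoters. Several of these PARPs are known as interferon-stimulated genes with antiviral roles.

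Parp14, Dtx3l and Parp9 lie together on chromosome 16 (GRCm38). Parp14 occupies 35832874 to 35871544 on the minus strand, Dtx3l occupies 35926511 to 35939151 on the minus strand, and Parp9 occupies 35938470 to 35972605 on the plus strand. Dtx3l and Parp9 are therefore arranged head to head and overlap by 682 bases, and Parp14 lies 54966 bases away, so that the 3 genes span 139732 bases. Their exons share 458 bases, which is 9.4% of the exon length of Parp9 and 8% of that of Dtx3l. The strand setting of the counting is not given in the sources used here, and reads from this shared stretch cannot be told apart without strand. The other members are dispersed: Parp10 lies on chromosome 15 (76231174 to 76243441, minus strand, sharing 4.8% of its exon length with Plec), Parp11 and Parp12 lie far apart on chromosome 6 (127446840 to 127494261, plus strand, and 39086410 to 39118349, minus strand), and Parp1 lies on chromosome 1 (180568924 to 180601254, plus strand). Parp11 and Parp12 share no exon bases with other genes, and Parp14 and Parp1 share at most 1.18%.

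**Figure D1:**
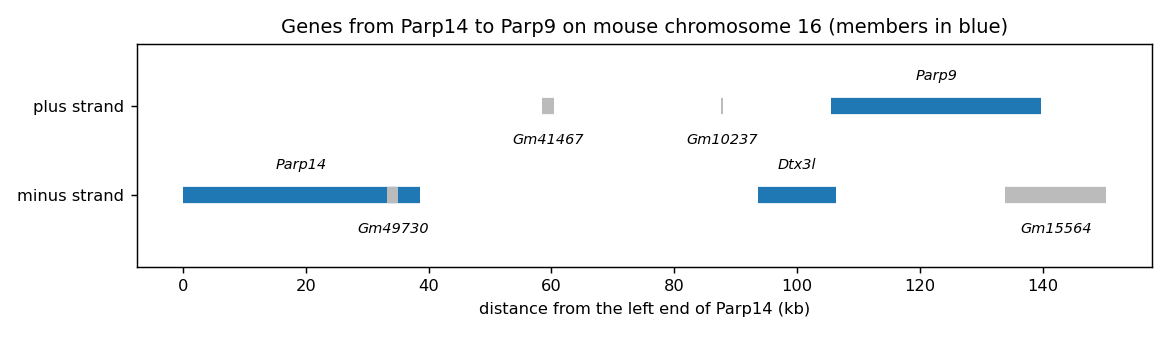
Genes between Parp14 and Parp9 on mouse chromosome 16, drawn to scale in kilobases from the left end of Parp14, with plus-strand genes above and minus-strand genes below. The 3 members are in blue and other annotated genes in grey. The 5′ ends of Dtx3l and Parp9 overlap by 682 bases.

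Promoter windows of 300 bases (250 before to 50 after a start, RefSeq, GRCm38.p6) were matched for 4 of the 7 members, Parp11 (2 windows), Parp12, Dtx3l and Parp1. Both strands were searched for the ISRE core (GAAA, any 2 bases, GAAA), the gamma-activated site (GAS; TTC, any 3 bases, GAA), an element of interferon-gamma responses, and the kappaB motif (GGG, any 5 bases, CC). The first Parp11 window held an ISRE core at −44 to −35 and a GAS at −37 to −29 from the start, overlapping by 3 bases. Neither motif was found in the second Parp11 window or in those of Parp12, Dtx3l and Parp1. Of all 32851 windows of this length, 3.44% held the ISRE core, 8.3% the GAS and 50.8% the kappaB motif. The kappaB motif was found in both Parp11 windows and in those of Parp12 and Parp1, and was not found in that of Dtx3l. A match describes letters only and is no evidence of binding. The first Parp11 window is shown because it alone held ISRE and GAS letters, which are the capitals, and the Dtx3l window because it reaches into the stretch that Dtx3l shares with Parp9.
Parp11 promoter, chr6:127446590-127446889, plus strand: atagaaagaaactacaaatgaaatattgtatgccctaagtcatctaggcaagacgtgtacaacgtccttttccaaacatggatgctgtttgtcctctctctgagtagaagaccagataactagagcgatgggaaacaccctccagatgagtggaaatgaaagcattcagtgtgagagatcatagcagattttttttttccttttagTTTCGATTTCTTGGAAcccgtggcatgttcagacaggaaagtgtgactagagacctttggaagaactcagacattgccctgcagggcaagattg
Dtx3l promoter, chr16:35938978-35939277, minus strand: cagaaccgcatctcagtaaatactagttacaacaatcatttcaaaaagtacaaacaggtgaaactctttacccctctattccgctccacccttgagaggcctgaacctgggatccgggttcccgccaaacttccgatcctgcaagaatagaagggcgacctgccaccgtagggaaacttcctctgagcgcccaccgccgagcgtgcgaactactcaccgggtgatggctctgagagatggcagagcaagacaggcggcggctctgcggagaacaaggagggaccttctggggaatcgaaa

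Total counts were between 41131209 and 77699206 per culture, and every value of a member rested on at least 522 counts. All 8 macrophage markers were expressed in every group, with a summed level of 5862 to 26060 CPM (counts scaled to a common library size) per culture. Summed markers of T cells, B cells, erythroid cells and NK cells reached at most 1.62 CPM, those of dendritic cells 3.68 CPM, those of neutrophils 2.77 to 31.3 CPM and those of fibroblasts 15.2 to 381 CPM, with ranges that overlapped between all groups for fibroblasts. Dendritic cell markers were at 2.62 to 3.68 CPM with VWF for 3.5 h and 0.751 to 1.42 CPM in its controls. Summed macrophage markers were at 18739 to 26060 CPM with VWF for 16 h and 5862 to 17313 CPM in its controls. Lyz2 made up most of this sum (means of 16746 CPM with VWF and 10131 CPM in controls). Cd14 (397 and 1223 CPM) and Mertk (41.98 and 60.2 CPM) had lower means with VWF, and the other macrophage markers had higher ones. What share of the values below these differences hold was not tested. Control replicate 5 at 16 h stood apart from its group (mean correlation of log2 CPM with the other cultures of its group 0.91, TMM factor 0.945, other 16 h controls 1.17 to 1.18), and LPS replicate 4 at 16 h did so to a lesser degree (0.946), against 0.969 or more in the others. CPM were scaled with TMM factors, which were 0.735 to 0.848 in LPS, 0.945 to 1.18 in control and 0.971 to 1.12 in VWF cultures. In bulk RNA, fewer cells that express a gene and less of its RNA per cell cannot be told apart.

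Per exon length, Parp1 was the highest member in control macrophages, and the highest member after either agonist was an interferon-linked gene. In controls at 3.5 h the mean level was 38.7 ± 9.304 TPM (counts per exon length, scaled to a common total; SD, n = 5) for Parp1, 27.3 ± 4.398 for Parp12, 16.4 ± 1.77 for Parp10, 13.9 ± 3.54 for Parp14, 11.4 ± 1.87 for Parp9, 9.09 ± 3.27 for Dtx3l and 5.65 ± 0.694 for Parp11. With VWF for 3.5 h, Parp14 had the highest level at 217 ± 64.3 TPM, Dtx3l, Parp12 and Parp9 followed at 98.9 ± 29.3, 93.3 ± 17.2 and 91.9 ± 19.1 TPM, and Parp11 remained lowest at 8.41 ± 1.06 TPM. With VWF for 16 h, Parp12 was highest at 86.6 ± 14.9 TPM. Parp1 at 53.3 ± 13.7 TPM was then near Parp14 (54.7 ± 19.99 TPM) and above Parp10, Parp9, Dtx3l and Parp11. With LPS for 16 h the order was another one, with Parp12 at 264 ± 27.04 TPM and Parp10 at 223 ± 29.9 TPM (SD, n = 4) above Parp14 at 129.8 ± 58.8 TPM, and Parp1 was lowest at 13.97 ± 6.77 TPM. TPM are not corrected for composition between groups, so they are used here only to order genes within a group.

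Parp9, the ADP-ribose reader of the Parp9 and Dtx3l complex, rose with both agonists and was highest with LPS at 3.5 h. Its level was 17.7, 16.4, 15.9, 19.7 and 15.7 CPM in the 5 controls at 3.5 h, 132, 135, 152, 180.3 and 196 CPM with VWF and 303, 356, 359 and 333 CPM with LPS. At 3.5 h, the 3 groups did not overlap. At 16 h it stood at 20.7, 29.3, 32.1, 26.8 and 28.1 CPM in controls, 74.8, 78.8, 84.3, 62.5 and 67.4 CPM in VWF cultures and 248, 216, 251 and 178 CPM in LPS cultures. The 3 groups were again separate, and both agonist groups were lower than at 3.5 h. In the order of the 6 group means, only VWF at 3.5 h and LPS at 16 h overlapped as neighbours.

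Dtx3l, the ubiquitin ligase of the complex, had the same order of group means. It was at 13.9, 11.98, 13.5, 23.00 and 16.8 CPM in controls at 3.5 h, 183, 173, 164, 202 and 276 CPM in VWF cultures and 254, 383, 355 and 306 CPM in LPS cultures. All VWF and LPS cultures exceeded all controls, and VWF replicate 5, the highest of its group, reached into the LPS range. Its levels at 16 h were 20.01, 28.8, 29.3, 22.8 and 15.4 CPM in controls, 65.4, 66.4, 78.02, 50.8 and 48.9 CPM in VWF cultures and 266, 218, 278 and 138 CPM in LPS cultures. The groups were separate at 16 h, and control replicate 5 and LPS replicate 4, the libraries that stood apart, were each lowest of their group.

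Parp14, a macrodomain-containing mono-ADP-ribosyltransferase that has been studied in macrophage activation, showed the largest response of the members at 3.5 h. Controls at 3.5 h had 40.5, 36.7, 32.5, 51.1 and 36.97 CPM, VWF cultures 709.6, 599.6, 603, 666 and 968 CPM and LPS cultures 935, 1645, 1334 and 1106 CPM. Every agonist culture was far above every control, and the highest VWF culture (replicate 5) passed the lowest LPS culture (replicate 1). After 16 h the values were 35.7, 54.5, 57.95, 43.2 and 18.5 CPM in controls, 183, 196, 255, 112 and 152 CPM in VWF cultures and 669, 538, 743 and 286 CPM in LPS cultures. The groups were separate, and control replicate 5 and LPS replicate 4 were again the lowest of their groups.

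Parp12, a zinc-finger mono-ADP-ribosyltransferase with known antiviral activity, was highest with LPS at 16 h. Controls had 36.2, 34.02, 30.1, 37.8 and 29.9 CPM at 3.5 h and 32.8, 42.4, 43.3, 36.6 and 60.8 CPM at 16 h. VWF cultures had 109, 113, 125, 169 and 150.03 CPM at 3.5 h and 123, 134, 139.7, 116 and 105 CPM at 16 h, with overlap between the times. LPS cultures had 334, 387, 401 and 429.9 CPM at 3.5 h and 499.7, 492, 495 and 535 CPM at 16 h, and every 16 h culture lay above every 3.5 h culture. Treatments did not overlap at either time.

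Parp10, a mono-ADP-ribosyltransferase that binds Myc, was separated in all 6 groups, since no neighbours in the order of means overlapped. The share of all genes with 6 separate groups was not counted. Controls held 23.5, 21.1, 21.6, 22.7 and 19.6 CPM at 3.5 h and 25.3, 27.2, 31.6, 26.4 and 36.1 CPM at 16 h. With VWF it was at 82.4, 85.4, 85.3, 134 and 94.9 CPM at 3.5 h, where replicate 4 stood above the rest, and at 68.03, 74.1, 74.1, 70.5 and 55.96 CPM at 16 h. With LPS it was at 192, 194, 186 and 192 CPM at 3.5 h and 486, 500.5, 401 and 447 CPM at 16 h. The later time was therefore lower with VWF and higher with LPS.

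Parp11, which modifies proteins of the nuclear envelope and has been linked to turnover of the type I interferon receptor, was the member with the lowest level in controls per exon length. It was at 13.5, 13.5, 11.04, 12.5 and 10.9 CPM in controls at 3.5 h, 21.4, 20.6, 19.01, 25.1 and 19.2 CPM in VWF cultures and 80.9, 68.7, 60.6 and 76.8 CPM in LPS cultures, and the 3 groups did not overlap. At 16 h it stood at 14.3, 17.3, 18.6, 17.5 and 25.8 CPM in controls, 43.3, 49.9, 41.1, 41.2 and 30.9 CPM in VWF cultures and 232, 225, 217 and 280.1 CPM in LPS cultures. Each agonist group was higher at 16 h than at 3.5 h without overlap, and the highest 16 h control was replicate 5.

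Parp1, taken as the constitutive reference, was not constant. It was lower with LPS, and with VWF every 16 h culture was above every 3.5 h culture. At 3.5 h it was at 56.9, 57.01, 54.8, 78.6 and 66.5 CPM in controls, 58.5, 43.2, 37.1, 36.5 and 56.8 CPM in VWF cultures and 29.5, 37.9, 28.2 and 29.9 CPM in LPS cultures. The VWF range overlapped both others, and every LPS culture was below every control. At 16 h it was at 80.9, 97.4, 94.00, 91.7 and 50.2 CPM in controls, 100.3, 97.9, 119, 71.4 and 111 CPM in VWF cultures and 34.2, 33.6, 50.4 and 18.6 CPM in LPS cultures. Control replicate 5 and LPS replicate 4 were the lowest of their groups, as for Parp14 and Dtx3l. The order of group means from lowest was LPS at 3.5 h, LPS at 16 h, VWF at 3.5 h, control at 3.5 h, control at 16 h and VWF at 16 h, and each pair of neighbours overlapped.

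**Figure D2:**
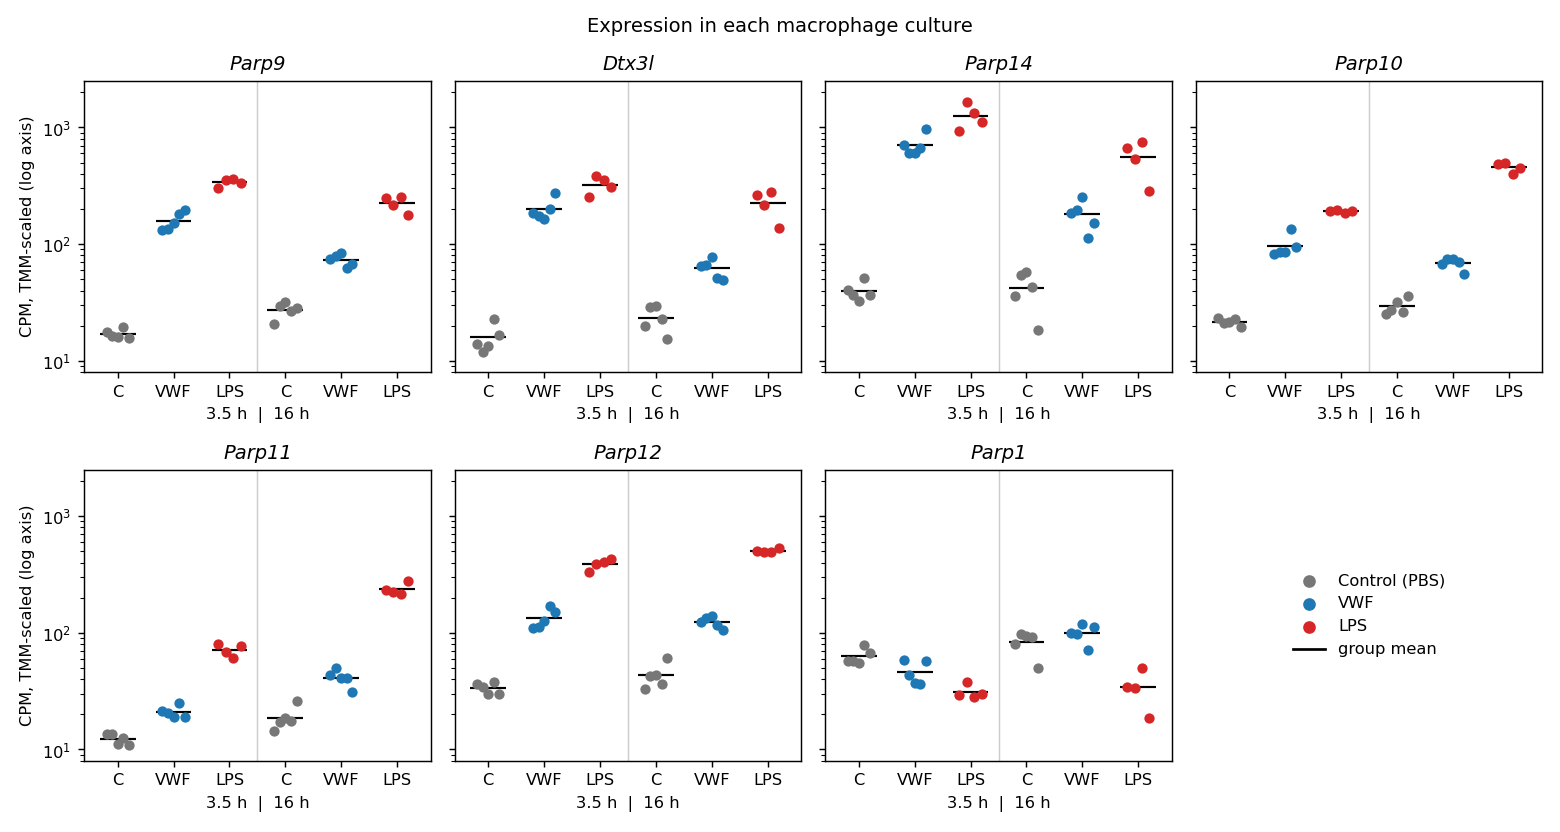
Level of each member in every culture (points) by group, in CPM scaled with TMM factors on a log axis, with the group mean as a line. C is control. Parp9, Dtx3l and Parp14 are highest at 3.5 h, Parp10 and Parp11 are highest with LPS at 16 h (means 459 and 239 CPM), and Parp1 is lowest with LPS.

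The first comparison asked how VWF changed the members within 3.5 h. All 5 interferon-linked members that could be tested rose, from 4.01-fold for Parp12 to 18.2-fold for Parp14, and Parp1 did not pass the test. A gene was tested when 1 culture of the comparison reached 10 TPM and was called at an adjusted p below 0.05 with a log2 fold change beyond 1 in size. The log2 fold change was 4.19 ± 0.18 (SE, edgeR adjusted p = 1.03e-08) for Parp14, 3.68 ± 0.21 (SE, edgeR adjusted p = 8.48e-08) for Dtx3l and 3.24 ± 0.13 (SE, edgeR adjusted p = 7.05e-09) for Parp9. It was 2.17 ± 0.14 (SE, edgeR adjusted p = 1.52e-07) for Parp10 and 2.005 ± 0.13 (SE, edgeR adjusted p = 2.50e-07) for Parp12. The 5 calls stand against 9.1% of 8200 genes called higher, and the median log2 fold change was 3.24 over these 5 and −0.01 over all genes tested. Parp14 ranked 90 and Dtx3l 117 from the top by fold. Parp11 stayed under 10 TPM and was not tested, and with no filter its log2 fold change was 0.85 ± 0.12 (SE, edgeR adjusted p = 1.65e-05), under the fold threshold. The VWF and control ranges of all 6 interferon-linked genes were apart, as were those of 18% of genes in the higher direction. Parp1 had a log2 fold change of −0.41 ± 0.16 (SE, edgeR adjusted p = 0.0595), which passed the adjusted threshold with DESeq2 (0.0373) and without VWF replicate 1 (0.0261) or 5 (0.0291).

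LPS at 3.5 h, the comparator stimulus, raised all 6 interferon-linked members. The log2 fold change was 5.01 ± 0.20 (SE, edgeR adjusted p = 2.71e-09) for Parp14, which is 32.2-fold, 4.38 ± 0.20 (SE, edgeR adjusted p = 8.95e-09) for Dtx3l and 4.33 ± 0.10 (SE, edgeR adjusted p = 1.05e-10) for Parp9. Parp12 rose by 3.55 ± 0.11 (SE, edgeR adjusted p = 5.96e-10) and Parp10 by 3.16 ± 0.08 (SE, edgeR adjusted p = 1.84e-10). Parp11 had the smallest response at 2.57 ± 0.12 (SE, edgeR adjusted p = 7.23e-09). The 6 calls stand against 12.8% of 8190 genes called higher, with a median of 3.94 over the members and −0.02 over all genes, and the ranges of the 6 did not overlap the controls, as for 26.1% of genes in that direction. Parp11 passed the 10 TPM filter only through LPS cultures (17.3 TPM or more, controls 6.4 TPM at most). Parp1 fell by 0.98 on the log2 scale (edgeR adjusted p = 5.03e-05), just under the fold threshold. It crossed that threshold without control replicate 1, 2 or 3 or LPS replicate 2 (−1.002 to −1.08) and at −1.52 when libraries were scaled by total counts alone, a scaling under which the median of all genes was −0.55 in place of −0.02.

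At 3.5 h VWF gave lower levels than LPS for every interferon-linked member, and the gap was widest for Parp11 and Parp12. All 6 were lower at an adjusted p below 0.05, against 24% of 7500 genes, and 3 of 6 passed the fold threshold as well, against 6.71%. These were Parp11 at −1.75 ± 0.12 (SE, edgeR adjusted p = 1.20e-06), Parp12 at −1.52 ± 0.14 (SE, edgeR adjusted p = 7.87e-06) and Parp9 at −1.06 ± 0.12 (SE, edgeR adjusted p = 5.18e-05), the last at −0.76 with total-count scaling. Parp11 passed the 10 TPM filter only through LPS cultures (17.3 TPM or more, VWF cultures 9.63 TPM at most). The differences were smaller for Dtx3l at −0.68 ± 0.17 (SE, edgeR adjusted p = 0.00709), Parp14 at −0.80 ± 0.19 (SE, edgeR adjusted p = 0.00531) and Parp10 at −0.97 ± 0.13 (SE, edgeR adjusted p = 0.000188). With total-count scaling Dtx3l did not pass (adjusted p = 0.0814), and Parp10 reached −1.13 without VWF replicate 4. The ranges of Dtx3l and Parp14 overlapped between VWF and LPS. The median over the 6 was −1.01, against 0.02 over all genes. Parp1 was higher with VWF than with LPS by 0.59 ± 0.17 (SE, edgeR adjusted p = 0.0164), which did not pass without LPS replicate 3 (edgeR adjusted p = 0.0517).

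After 16 h of VWF the interferon-linked members were still above controls, with effects in a narrower range than at 3.5 h. All 6 were called higher than in controls, against 4.55% of 7798 genes, with ranges apart as for 12.7% of genes. Parp11 entered this count only through VWF cultures (12.8 TPM or more), as no control reached 10 TPM (8.29 TPM at most). Its place among the 6 therefore depends on the group in which it was high. The log2 fold change was 2.09 ± 0.32 (SE, edgeR adjusted p = 0.00068) for Parp14, 1.52 ± 0.16 (SE, edgeR adjusted p = 4.66e-05) for Parp12 and 1.42 ± 0.13 (SE, edgeR adjusted p = 1.94e-05) for Parp9. It was 1.402 ± 0.20 (SE, edgeR adjusted p = 0.000455) for Dtx3l, 1.22 ± 0.12 (SE, edgeR adjusted p = 2.45e-05) for Parp10 and 1.14 ± 0.16 (SE, edgeR adjusted p = 0.000435) for Parp11. The median over the 6 was 1.41, against −0.03 over all genes. Parp1 had 0.26 ± 0.20 (SE, edgeR adjusted p = 0.396). Without control replicate 5 all 6 calls remained, between 1.27 for Parp11 and 1.90 for Parp14.

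LPS for 16 h kept all 6 interferon-linked members high and Parp1 low. Parp10 had the largest log2 fold change at 4.003 ± 0.14 (SE, edgeR adjusted p = 3.92e-08), followed by Parp14 at 3.77 ± 0.39 (SE, edgeR adjusted p = 2.75e-05) and Parp11 at 3.71 ± 0.18 (SE, edgeR adjusted p = 2.38e-07). Parp12 was at 3.59 ± 0.19 (SE, edgeR adjusted p = 3.00e-07), Dtx3l at 3.31 ± 0.26 (SE, edgeR adjusted p = 4.53e-06) and Parp9 at 3.06 ± 0.16 (SE, edgeR adjusted p = 2.76e-07). The 6 calls stand against 15.3% of 7994 genes called higher, with a median of 3.65 against −0.03 over all genes, and their ranges were apart as for 23.5% of genes. Parp11 passed the 10 TPM filter only through LPS cultures (65.1 TPM or more, controls 8.29 TPM at most). Parp1 was called lower at −1.24 ± 0.29 (SE, edgeR adjusted p = 0.00517), as were 12.4% of genes, although the highest LPS culture (50.4 CPM) lay just above the lowest control (50.2 CPM, replicate 5). Without the 2 libraries that stood apart its log2 fold change was −1.17, and the 6 others were 3.17 to 4.10.

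At 16 h every interferon-linked member was again lower with VWF. All 6 interferon-linked members passed both thresholds in the comparison with LPS, against 14.5% of 7574 genes. Parp10 differed by −2.74 ± 0.11 (SE, edgeR adjusted p = 5.51e-08), Parp11 by −2.53 ± 0.14 (SE, edgeR adjusted p = 3.12e-07) and Parp12 by −2.03 ± 0.10 (SE, edgeR adjusted p = 1.34e-07). Dtx3l differed by −1.86 ± 0.22 (SE, edgeR adjusted p = 5.09e-05), Parp14 by −1.63 ± 0.30 (SE, edgeR adjusted p = 0.00103) and Parp9 by −1.598 ± 0.13 (SE, edgeR adjusted p = 4.27e-06). The median was −1.94, against 0.00 over all genes. Parp1 was called higher with VWF at 1.55 ± 0.27 (SE, edgeR adjusted p = 0.000661), against 11.1% of genes called higher.

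**Figure D3:**
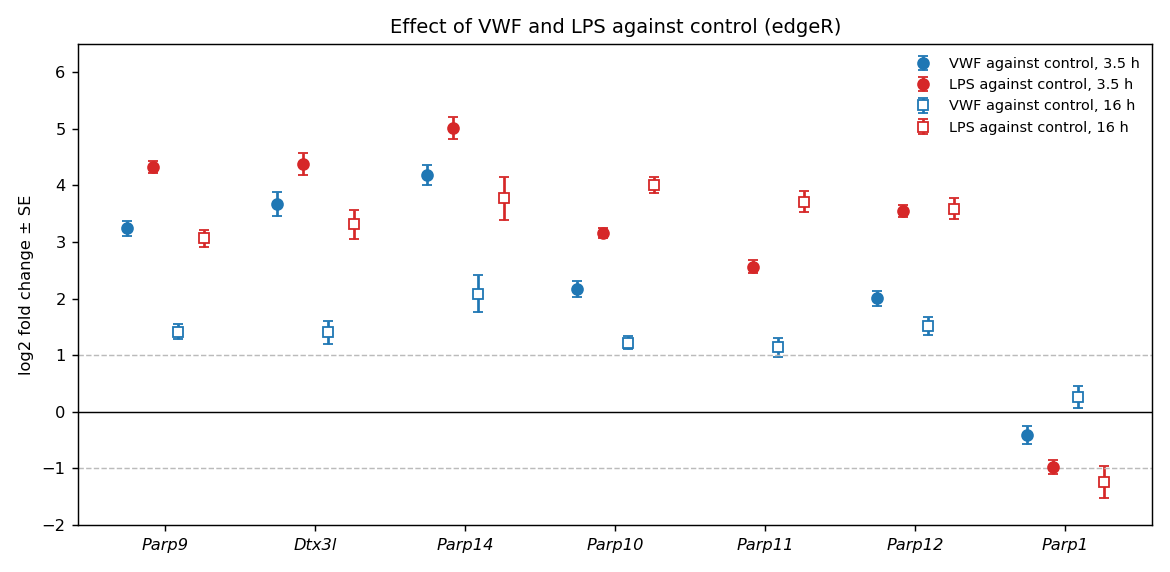
Log2 fold change (± SE, edgeR) of each member against controls of the same time for VWF (blue) and LPS (red) at 3.5 h (filled circles) and 16 h (open squares), with the fold threshold as dashed lines. Parp11 with VWF at 3.5 h was not tested. VWF effects at 16 h lie between 1.14 and 2.09 for the interferon-linked genes, and LPS effects between 3.06 and 4.00.

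Within controls, time alone called none of the members that were tested. Of 6 members tested, 0 were called by edgeR and 0 by DESeq2, against 9.08% of 8333 genes called in either direction. For 6 genes this count is near the background, and it does not show that the members were unchanged. Parp11 was not tested, and with no filter it was higher at 16 h by 0.55 ± 0.15 (SE, edgeR adjusted p = 0.0208). Parp9 was higher at 16 h by 0.68 ± 0.12 (SE, edgeR adjusted p = 0.00152) and Parp10 by 0.44 ± 0.11 (SE, edgeR adjusted p = 0.0116), which passed the adjusted threshold without the fold, as 20.7% of genes did in that direction. Parp14 had 0.08 ± 0.26 (SE, edgeR adjusted p = 0.813) and Dtx3l 0.55 ± 0.22 (SE, edgeR adjusted p = 0.0637). Without control replicate 5 at 16 h, Dtx3l (0.67, edgeR adjusted p = 0.0124) and Parp1 (0.54, edgeR adjusted p = 0.0021) also passed the adjusted threshold.

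Between 3.5 h and 16 h of VWF, the 3 genes of the chromosome 16 locus fell, whereas Parp12 did not pass the test and Parp11 was higher. The log2 change was −1.97 ± 0.22 (SE, edgeR adjusted p = 1.17e-05) for Parp14, −1.68 ± 0.17 (SE, edgeR adjusted p = 6.08e-06) for Dtx3l and −1.105 ± 0.13 (SE, edgeR adjusted p = 1.71e-05) for Parp9, and these 3 calls stand against 12.2% of 7927 genes called lower. Parp10 changed by −0.48 ± 0.14 (SE, edgeR adjusted p = 0.00962), under the fold threshold, and Parp12 by −0.10 ± 0.13 (SE, edgeR adjusted p = 0.533). Parp11 was higher by 0.98 ± 0.13 (SE, edgeR adjusted p = 4.01e-05) and passed the fold threshold without VWF replicate 4 at 3.5 h (1.05) or replicate 5 at 16 h (1.08). Parp1 was called higher at 16 h at 1.12 ± 0.18 (SE, edgeR adjusted p = 0.000183), against 9.15% of genes.

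Between 3.5 h and 16 h of LPS, Parp10 and Parp11 rose and Parp14 fell. Parp11 rose by 1.76 ± 0.13 (SE, edgeR adjusted p = 6.32e-06) and Parp10 by 1.29 ± 0.09 (SE, edgeR adjusted p = 5.31e-06), against 14.6% of 6987 genes called higher. Parp14 changed by −1.14 ± 0.29 (SE, edgeR adjusted p = 0.00836), against 13.5% called lower, and dropped under the fold threshold without LPS replicate 2 at 3.5 h (−0.99) or LPS replicate 4 at 16 h (−0.92). Parp9 changed by −0.57 ± 0.12 (SE, edgeR adjusted p = 0.00333) and Parp12 by 0.41 ± 0.10 (SE, edgeR adjusted p = 0.00564), both under the fold threshold. Dtx3l had −0.50 ± 0.22 (SE, edgeR adjusted p = 0.0779) and Parp1 0.15 ± 0.26 (SE, edgeR adjusted p = 0.647).

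**Figure D4:**
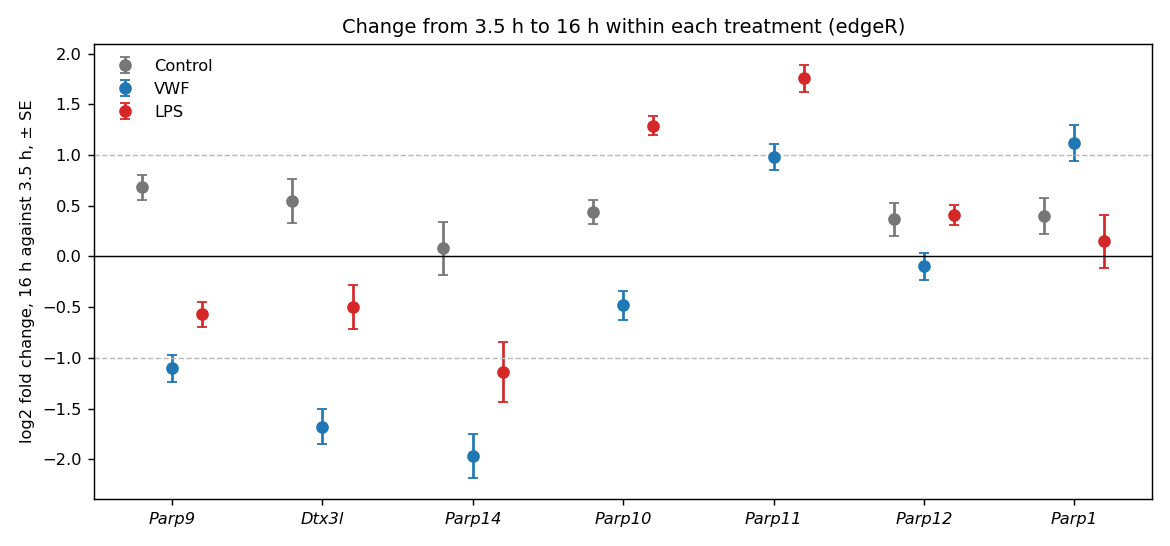
Log2 fold change (± SE, edgeR) from 3.5 h to 16 h within control, VWF and LPS cultures for each member, with the fold threshold as dashed lines. Parp11 in controls was not tested. Parp14, Dtx3l and Parp9 lie below 0 with both agonists (Parp14 −1.97 with VWF and −1.14 with LPS), Parp10 has opposite signs with VWF (−0.48) and LPS (1.29), and Parp11 lies above 0 with both.

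The change of each agonist's effect with time was tested directly as an interaction. The VWF effect was smaller at 16 h for Dtx3l (change of −2.24 ± 0.29, SE, edgeR adjusted p = 4.71e-06), for Parp14 (change of −2.06 ± 0.36, SE, edgeR adjusted p = 0.000142) and for Parp9 (change of −1.79 ± 0.18, SE, edgeR adjusted p = 1.91e-07) on the log2 scale, and these 3 calls stand against 7.77% of 8660 genes. The change of the VWF effect was −0.92 ± 0.18 (SE, edgeR adjusted p = 0.000539) for Parp10, −0.46 ± 0.21 (SE, edgeR adjusted p = 0.111) for Parp12 and 0.37 ± 0.20 (SE, edgeR adjusted p = 0.184) for Parp11, none of them called. The LPS effect was smaller at 16 h for Parp9 (change of −1.25 ± 0.18, SE, edgeR adjusted p = 1.68e-05), for Parp14 (change of −1.22 ± 0.42, SE, edgeR adjusted p = 0.0227) and for Dtx3l (change of −1.04 ± 0.33, SE, edgeR adjusted p = 0.0148), 3 calls against 12.8% of 8748 genes, and larger for Parp11 (change of 1.15 ± 0.21, SE, edgeR adjusted p = 0.000247), 1 call against 13.5%. Parp10 had a change of 0.86 ± 0.15 (SE, edgeR adjusted p = 0.000112) in the LPS effect and Parp12 had 0.05 ± 0.21 (SE, edgeR adjusted p = 0.857). The call of Dtx3l for LPS was lost under the fold threshold when any of 7 cultures was left out (−0.88 to −0.996), and that of Parp14 was lost without LPS replicate 2 at 3.5 h (−1.05, edgeR adjusted p = 0.0547) and with no filter (edgeR adjusted p = 0.0518). These interactions share the control cultures.

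The gap between VWF and LPS widened with time most for Parp10. The VWF minus LPS difference changed by −1.79 ± 0.18 (SE, edgeR adjusted p = 3.59e-07) for Parp10 and −1.21 ± 0.29 (SE, edgeR adjusted p = 0.00216) for Dtx3l, 2 calls against 14.3% of 8217 genes. Of the 6, 5 passed the adjusted threshold alone, against 29.2%. Parp9 did not pass it with total-count scaling (edgeR adjusted p = 0.136) or no filter (0.0767), nor did Parp12 with these settings, edgeR's own filter or the fit of all groups (0.0517 to 0.0889). Those not called had values of −0.56 ± 0.19 for Parp9, −0.80 ± 0.19 for Parp11, −0.53 ± 0.18 for Parp12 and −0.86 ± 0.37 for Parp14 (SE). Parp14 was called without LPS replicate 4 (−1.07) or VWF replicate 3 (−1.03) at 16 h. Parp1 changed in the other direction by 0.94 ± 0.32 (SE, edgeR adjusted p = 0.0209).

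The ratio of Dtx3l to Parp9 does not depend on scaling between cultures. Counts per exon kilobase gave log2 ratios of −0.57, −0.69, −0.47, −0.0069 and −0.14 in controls at 3.5 h, 0.24, 0.12, −0.12, −0.07 and 0.26 with VWF and −0.49, −0.13, −0.25 and −0.36 with LPS. VWF cultures at 3.5 h were the only group with a mean above 0, and all of them were above all LPS cultures. At 16 h the log2 ratios were −0.28, −0.26, −0.37, −0.47 and −1.10 in controls, −0.43, −0.48, −0.35, −0.53 and −0.70 with VWF and −0.13, −0.22, −0.08 and −0.60 with LPS, with overlap between all 3 groups. At 3.5 h the mean was 0.08 ± 0.18 (SD, n = 5) with VWF, −0.38 ± 0.29 (n = 5) in controls and −0.31 ± 0.15 (n = 4) with LPS. VWF exceeded controls by 0.46 (exact two-sided permutation p = 0.0317) and LPS by 0.39 (exact permutation p = 0.0159), and neither passed after Benjamini-Hochberg adjustment over the 6 comparisons (exact permutation, adjusted p = 0.0952 for both). The smallest exact p that these group sizes allow is 0.00794. The other 4 differences had adjusted exact permutation p-values of 0.19 to 1. How reads in the 458 shared exon bases were assigned to the 2 genes is not given in the sources used here.

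**Figure D5:**
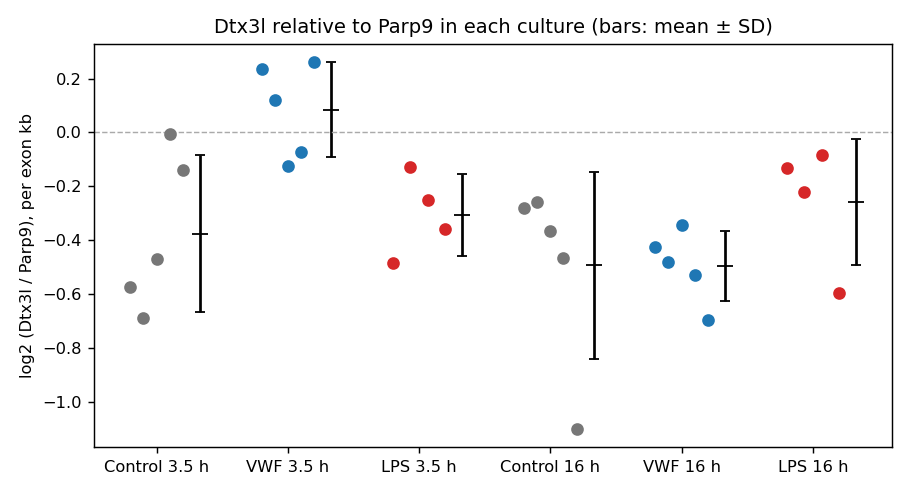
Log2 ratio of Dtx3l to Parp9 counts per exon kilobase in each culture (points), with the mean and SD of each group beside them. VWF at 3.5 h has the highest mean (0.08), and control replicate 5 at 16 h has the lowest ratio (−1.10).

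The rest of the PARP family moved in part. Of 10 other family members, 8 were tested at 3.5 h and 3 were called higher with VWF and 3 with LPS, with none called lower, against 9.1% and 12.8% of genes called higher. These were Tiparp (PARP7), which responds to the aryl hydrocarbon receptor, Zc3hav1 (PARP13), which binds viral RNA, and Parp8. With VWF their log2 fold changes at 3.5 h were 1.67 ± 0.13, 1.498 ± 0.15 and 1.13 ± 0.16 (SE). With LPS they were 3.701 ± 0.16, 2.37 ± 0.13 and 2.16 ± 0.14. At 16 h these 3 were again called with LPS (2.85 ± 0.41, 1.81 ± 0.21 and 2.08 ± 0.13). In that comparison 4 of 6 tested were called higher, against 15.3% of genes. For VWF at 16 h, Tiparp had 0.06 ± 0.33, Zc3hav1 0.34 ± 0.17 and Parp8 was not tested. Parp8 passed the 10 TPM filter at 16 h through LPS cultures alone (means of 12.6 TPM with LPS, 4.28 in controls and 4.45 with VWF). The counts for LPS and VWF at 16 h are therefore over unlike sets of genes. Parp3, which acts in repair of DNA breaks, was called higher at 16 h with LPS (2.42 ± 0.46) and with VWF (1.37 ± 0.40, SE, edgeR adjusted p = 0.0258), and the VWF call was lost without any 1 of VWF replicates 1, 2 or 3 (edgeR adjusted p up to 0.0591). It was the 1 call of 5 tested with VWF at 16 h, against 4.55%. With total-count scaling Parp8 with VWF at 3.5 h was under the fold threshold (0.91). Median log2 fold changes over the tested family members were 0.63 with VWF and 0.72 with LPS at 3.5 h and 0.18 and 1.95 at 16 h. Directly compared, Tiparp was lower with VWF than with LPS at 3.5 h (−2.004), 1 call of 7 tested against 6.71%, and Tiparp, Parp8 and Zc3hav1 were lower at 16 h, 3 of 6 tested against 14.5% (−2.73, −1.91 and −1.42), Zc3hav1 at −0.97 with total-count scaling.

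Of 7 genes that remove ADP-ribose or assist its transfer, 6 were tested at each time, and the few calls against controls were in the lower direction. None was called higher, where the background was 4.55% to 15.3% of genes over the 4 comparisons, so that for 6 genes this count is near the background. Adprh was not called but had higher means with LPS than in controls, at 3.5 h (132 and 82.7 CPM) and 16 h (174 and 97.9 CPM). Oard1, which removes terminal ADP-ribose from glutamate, was called lower with LPS at 3.5 h (−1.16 ± 0.16, SE, edgeR adjusted p = 8.41e-05), 1 gene against 11.8% of all genes called lower, and had −0.78 ± 0.14 with VWF, below the fold threshold that 5.59% of genes passed in that direction. At 16 h, Macrod1, a macrodomain hydrolase, was called lower with LPS (−1.76 ± 0.30, SE, edgeR adjusted p = 0.000767) and with VWF (−1.05 ± 0.24, SE, edgeR adjusted p = 0.0085), 1 of 6 against 4.15% of genes called lower with VWF. The VWF value was −0.79 without control replicate 5. Adprhl2, which removes ADP-ribose from serine, was called lower with LPS at 16 h (−1.14 ± 0.12, SE, edgeR adjusted p = 2.84e-05) and was higher with VWF than with LPS (1.15 ± 0.12), so that 2 of 6 were called lower with LPS at 16 h, against 12.4%. The median over the tested genes was 0.00 with VWF and 0.02 with LPS at 3.5 h and −0.10 and −0.38 at 16 h.

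Among the other Deltex ligases, Dtx2 was induced and Dtx3 and Dtx4 were not. Dtx2 was at 14.2 ± 0.889 CPM in controls (SD, n = 5), 70.01 ± 4.71 CPM with VWF (n = 5) and 70.5 ± 6.47 CPM with LPS (n = 4) at 3.5 h. Its log2 fold change was 2.32 ± 0.08 (SE, edgeR adjusted p = 2.14e-09) with VWF and 2.34 ± 0.09 (SE, edgeR adjusted p = 2.28e-09) with LPS, the 1 gene of 3 tested that was called higher in each, against 9.1% and 12.8% of genes. Dtx2 passed the 10 TPM filter through agonist cultures alone (control means of 6.51 TPM at 3.5 h and 6.96 TPM at 16 h). At 16 h it was at 24.1 ± 1.92 CPM (VWF) and 144 ± 15.6 CPM (LPS), with log2 fold changes of 0.51 ± 0.08 and 3.14 ± 0.11, so that only LPS passed the fold threshold, and the agonists differed by −2.58 ± 0.10 (SE, edgeR adjusted p = 3.93e-08). Dtx4 was called lower with LPS at 3.5 h (−1.16 ± 0.16, against 11.8% of genes), where it was higher with VWF than with LPS (1.32 ± 0.17, 1 of 3 against 4.71% of genes), and Dtx3 was called lower with LPS at 16 h (−1.47 ± 0.16, against 12.4%). Medians over the 3 tested were 0.13 and −0.45 at 3.5 h and 0.29 and −0.78 at 16 h, with VWF and LPS.

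Stat2 and Irf9, which belong to ISGF3, were raised by both agonists. Both were called higher at 3.5 h, where 9.1% of genes were with VWF and 12.8% with LPS, with log2 fold changes of 3.23 ± 0.18 for Stat2 and 1.76 ± 0.07 for Irf9 with VWF (SE), and 3.61 ± 0.19 and 2.35 ± 0.08 with LPS. With VWF at 16 h, Stat2 (1.93 ± 0.36) was called and Irf9 (0.93 ± 0.11) passed the adjusted threshold only, against 4.55% of genes called higher. With LPS at 16 h both were called, at 4.29 ± 0.44 and 1.65 ± 0.13, against 15.3%.

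Genes beside the members were examined for comparison. Of 20 distinct protein-coding neighbours, 10 were tested for VWF and 11 for LPS at 3.5 h, and 1 and 2 of them were called higher, with medians of 0.12 and 0.39. These counts lie near the background of 9.1% and 12.8% of all genes. Dirc2, a transporter gene 63518 bases from Parp14, rose at 3.5 h with VWF (2.09 ± 0.10, SE, edgeR adjusted p = 2.63e-08) and LPS (2.58 ± 0.11, SE, edgeR adjusted p = 5.94e-09). Its VWF effect changed by −2.78 ± 0.15 with time (SE, edgeR adjusted p = 5.18e-11), a drop larger than the rise at 3.5 h. Of 10 neighbours tested, Itpkb, which lies beside Parp1, also had a negative change that was called (−1.67 ± 0.17), against 7.77% of genes. Ccnd2, which encodes cyclin D2 and lies 294647 bases from Parp11, rose with LPS at 3.5 h (3.804 ± 0.27, SE, edgeR adjusted p = 3.35e-07). At 16 h no neighbour of 9 tested reached the fold threshold with VWF. This is near the background of 4.55% of genes called higher and 4.15% called lower. The 4 that passed the adjusted threshold alone (edgeR) were 1 higher and 3 lower. With LPS 4 of 10 were called higher, namely Grina, Ccnd2, Itpkb and Kdm7a (2.797, 2.49, 1.25 and 1.16), against 15.3% of genes. With total-count scaling Itpkb (0.70) and Kdm7a (0.63) were under the fold threshold.

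The genes with patterns most like each member were sought among 8867 genes by the root mean square difference of the 6 centred group means of log2 CPM. Parp9 and Dtx3l were each other's nearest gene, at 0.2 log2 units, followed for both by Gm8995, a pseudogene, and Trim21, an antibody receptor and ubiquitin ligase. Parp9 and Dtx3l share exon bases, as stated above. Parp14 had Slfn8, Dtx3l and Bcl2a1a nearest, at 0.35 to 0.43. Parp12 was closest to Trim30a at 0.11, Ifi35 at 0.15 and Pnp at 0.23. Parp10 was closest to H2-T10, at 0.17, and Gm43464 lay at 0.27. Parp11 was closest to Mlkl, the executor of necroptosis, Gm43464 and Mov10, an RNA helicase, at 0.3 to 0.32. Parp1 was closest to Gcsh, Cbx3 and Sema6b, at 0.1 to 0.12. H2-T10, Ifi35 and Pnp share 16.8 to 27.1% of their exon length with other genes, H2-T10, Slfn8, Trim30a and Bcl2a1a belong to families of similar genes and Gm8995 is a pseudogene, so the counts of these genes are less certain. Parp11 and Parp14 were 1.52 log2 units apart, the widest distance among the interferon-linked members.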

How the data were processed

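RNA from 28 cultures of bone marrow-derived macrophages was sequenced by a service provider. The authors deposited raw gene counts, 1 whole number per gene and culture for 54532 genes, and these counts were used as deposited. The submitters' processing notes name STAR and GRCm38; for the annotation, the strand setting and multi-mapping reads the entry is: not given in the sources used here. Lengths of merged exons were taken from GENCODE M21 (GRCm38), in which 54495 genes had a length. Depth is given beside the results.

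The comparisons used edgeR 4.0.16 (quasi-likelihood, robust, TMM factors) in R 4.3.3 on the cultures of each comparison, for genes with at least 10 TPM in 1 culture. P-values were adjusted by Benjamini-Hochberg over all genes tested, and a gene was called at an adjusted p below 0.05 and a log2 fold change beyond 1. Each edgeR SE was derived from the test itself, as the size of the log2 fold change divided by the square root of its F statistic. CPM used TMM factors over all 28 cultures, and log2 CPM a prior count of 2. The Dtx3l to Parp9 ratio was tested by exact permutation. Only the edgeR fits were tested on simulated counts, in which some genes were changed by known amounts. No 2 cultures of a group agreed within sampling noise over 52 pairs (lowest chi-square per degree of freedom 25.0).

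Cultures share replicate numbers across groups in the labels. Of all pairs of groups, VWF and LPS at 16 h alone had deviations from the group means that correlated above 0.1 for each shared number (r = 0.16 to 0.78, 4 pairs). Alternatives were DESeq2 1.42.0, median-of-ratios factors, scaling by total counts, other filters, 1 fit of all groups, the replicate block and leaving out each culture, with 1 added after seeing the data, leaving out both libraries that stood apart. Named genes were all members, the called genes of the lists and neighbours, and the 3 most alike genes of each member; a few of these results are not reported here. The members and lists were chosen with earlier results of these data known.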

Additional observations from a re-analysis of the deposited data

Results flagged for a closer look

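Single cultures stood far from the rest of their group in 3 of 48 groups checked with Dixon's test, where chance gives about 1 in 20. Parp10 was at 134 CPM in VWF replicate 4 at 3.5 h, and the nearest culture had 94.9 CPM. Parp1 was at 37.9 CPM in LPS replicate 2 at 3.5 h, and the nearest culture had 29.9 CPM. The log2 ratio of Dtx3l to Parp9 was −1.10 in control replicate 5 at 16 h, a library that stood apart as a whole, and the nearest was −0.47.

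Effects that differed between the times by the interaction test came next. The change of the VWF effect from 3.5 h to 16 h on the log2 scale was −1.79 for Parp9, −2.06 for Parp14 and −2.24 for Dtx3l. The change of the LPS effect was −1.25 for Parp9, −1.22 for Parp14, −1.04 for Dtx3l and 1.15 for Parp11. The VWF minus LPS difference changed by −1.79 for Parp10 and −1.21 for Dtx3l.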

How the results depend on the processing

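Over 232 further fits, no call of a member changed direction. The number of members called for the change of the LPS effect with time was 2 to 4 when each culture was left out, and 2 without LPS replicate 2 at 3.5 h. The replicate block changed no call of a member, for example Parp14 with VWF at 3.5 h (4.17) and Parp10 between VWF and LPS at 16 h (−2.67). Leaving out each culture moved values that were not called across 0: Parp14 in controls over time (−0.049 to 0.28), Parp12 over time with VWF (−0.16 to 0.0030), Parp1 over time with LPS (−0.088 to 0.36) and Parp12 in the change of the LPS effect (−0.038 to 0.21). The Dtx3l to Parp9 log2 ratio difference ranged from −0.00809 to 0.16 for LPS against control at 3.5 h, from −0.15 to 0.057 for VWF against control at 16 h and from 0.38 to 0.55 for VWF against control at 3.5 h (exact permutation, adjusted p = 0.0476 without control replicate 4). Without both libraries that stood apart, Parp14 over time with LPS was at −0.92, the change of the LPS effect for Dtx3l at −0.99, and the change of the VWF minus LPS difference for Parp14 at −1.07.

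With scaling by total counts the median log2 fold change of all genes was −0.22 (VWF) and −0.55 (LPS) at 3.5 h and −0.59 (LPS) at 16 h, in place of −0.01, −0.02 and −0.03. It turned 1047 higher and 963 lower calls for LPS at 3.5 h into 704 and 2213, 1221 and 989 at 16 h into 782 and 2319, and 746 and 458 for VWF at 3.5 h into 608 and 652. Between VWF and LPS it turned 353 and 503 at 3.5 h into 772 and 334, and 837 and 1095 at 16 h into 1772 and 687. Over the 12 comparisons, 679 to 2301 genes were called with the 10 TPM filter, 1362 to 4116 with edgeR's own filter and 1378 to 4542 with no filter, which tests more genes. The 10 TPM filter left Parp11 untested with VWF at 3.5 h and in controls over time. A gene low in controls could pass it through agonist cultures alone, as Parp11, Parp8 and Dtx2 did.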
